A study of Mus musculus with 14 samples.

Results

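Transcription factors of urothelial differentiation were examined in the bladder epithelium of mouse embryos in which Dnmt1, the maintenance DNA methyltransferase, was conditionally deleted. The 10 members were Trp63, Pparg, Grhl2, Grhl3, Foxa1, Elf3, Klf5, Gata3, Ehf and Ovol1. They were chosen by symbol from what is known of this epithelium, but with earlier results of these data known, so the choice was not independent of them. They are 10 of 20308 gene symbols in the expression table, and all 10 were among the 13011 genes that passed the filter on low counts. Polyadenylated RNA was sequenced in 14 libraries of bladder urothelium separated from its stroma with trypsin, taken at embryonic day 15.5 from mice of strain C57BL/6; 129S4. Each library is 1 lysate of tissue pooled from several embryos of a harvest, so that the error given here is the spread between pools.

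The Dnmt1cKO libraries (n = 5) came from embryos of genotype Shhcre/+; Dnmt1flox/flox. The Control libraries (n = 2) came from Shhcre/+; Dnmt1flox/+ embryos, and the Cre neg libraries (n = 7) from litter mates without Cre, whose Dnmt1 alleles the labels do not give. Dnmt1cKO and Control embryos share 1 Shh allele that carries Cre and at least 1 floxed Dnmt1 allele. The recombinase is driven from the Shh locus, which in the bladder is active in the epithelium.

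The urothelium lines the bladder with basal, intermediate and superficial cells. Its differentiation rests on transcription factors that act together: p63 in basal cells, the nuclear receptor PPAR gamma with its retinoid X receptor partner, the pioneer factor FOXA1, GATA3, KLF5, grainyhead-like factors and the epithelial ETS factors ELF3 and EHF. They switch on uroplakins, keratins and junction genes, and several of them, with OVOL1, are also known for holding epithelial cells in an epithelial state.

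DNMT1 copies methylation at CG dinucleotides after replication, so the CG content of the members' promoters is shown before their expression. RefSeq (GRCm38.p6) gave 7 promoters for 5 members (Elf3, Foxa1, Gata3, Grhl3 and Pparg, which has 3 start sites), each running from 250 bases before the start site to 50 bases after it. Of all 32851 promoters in the same set the median held 7 CG dinucleotides. The Gata3 promoter (chr2:9878551-9878850, minus strand) held 22, a number reached by 23.1% of all promoters, and the Foxa1 promoter (chr12:57546062-57546361, minus strand) held 26, reached by 16.9%. Both windows follow RefSeq start sites and lie inside the genes as GENCODE M21 annotates them. On the minus strand those genes begin at 9890034 (Gata3) and 57546916 (Foxa1), so the 2 annotations differ in the start site. Elf3 and Grhl3 each held 12, reached by 39.6%. The start sites of Pparg spanned a wide range: the first (chr6:115360894-115361193, plus strand) held 44 CG, reached by 2.25% of promoters, a second held 13, and the most downstream (chr6:115421816-115422115, plus strand) held 2, which 85.9% of promoters reach. The promoter of Gata3 is printed because Gata3 stood lowest relative to Cre neg, that of Foxa1 for the motif described after it, and the first and the most downstream of Pparg for their contrast. Sequences run 5′ to 3′ on the strand of the gene, with each CG in capitals.
Gata3: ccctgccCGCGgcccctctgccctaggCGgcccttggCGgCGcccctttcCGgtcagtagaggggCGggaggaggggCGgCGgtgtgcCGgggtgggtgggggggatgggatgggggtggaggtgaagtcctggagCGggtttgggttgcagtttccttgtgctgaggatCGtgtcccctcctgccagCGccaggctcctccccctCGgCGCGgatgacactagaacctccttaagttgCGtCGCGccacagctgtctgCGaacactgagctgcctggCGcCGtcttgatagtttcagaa
Foxa1: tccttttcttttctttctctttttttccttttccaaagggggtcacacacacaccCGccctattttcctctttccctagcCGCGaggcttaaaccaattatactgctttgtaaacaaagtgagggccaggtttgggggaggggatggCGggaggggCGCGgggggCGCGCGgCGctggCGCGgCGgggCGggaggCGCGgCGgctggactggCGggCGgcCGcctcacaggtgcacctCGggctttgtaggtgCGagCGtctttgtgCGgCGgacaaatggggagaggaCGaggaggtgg
Pparg, first start site: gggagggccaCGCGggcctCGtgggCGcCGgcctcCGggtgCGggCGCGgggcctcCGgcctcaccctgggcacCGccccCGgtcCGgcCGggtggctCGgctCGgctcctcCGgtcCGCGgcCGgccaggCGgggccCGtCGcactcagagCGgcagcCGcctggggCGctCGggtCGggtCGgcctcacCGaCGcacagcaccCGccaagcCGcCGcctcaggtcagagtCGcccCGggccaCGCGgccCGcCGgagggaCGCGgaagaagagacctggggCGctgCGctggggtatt
Pparg, most downstream start site: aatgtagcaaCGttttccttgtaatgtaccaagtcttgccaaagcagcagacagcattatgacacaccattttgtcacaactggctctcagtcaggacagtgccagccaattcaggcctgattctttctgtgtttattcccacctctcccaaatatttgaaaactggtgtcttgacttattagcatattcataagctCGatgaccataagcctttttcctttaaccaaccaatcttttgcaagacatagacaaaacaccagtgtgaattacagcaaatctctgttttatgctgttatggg
Methylation itself was not measured in these samples. On both strands of the 7 promoters, a forkhead motif (GTAAACA), which 3.65% of all promoters hold, was found in 1, that of Foxa1. It lay at -141 from the RefSeq start site, inside the gene as GENCODE annotates it. The grainyhead motif AACCNGTT (2.09% of all promoters) and the GATA motif AGATAA (11.2%) were found in 0 of the 7, and the GC box GGGCGG (35.7%) in 5 of 7. No matches of different motifs overlapped, and a match describes the letters only.

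Totals ran from 2520509 to 9573007 counts in Dnmt1cKO, from 5731113 to 13131921 in Control and from 3111972 to 12958881 in Cre neg libraries. Levels are counts per 1000000 of the TMM-scaled library (CPM), and 3 counts, the limit that a count of 0 allows, came to 0.207 CPM in the deepest and 1.30 CPM in the shallowest library, covering counting error only. Of 10 urothelial markers (4 uroplakins, 4 keratins, Epcam and Cdh1), 9 were above 0 in all 14 libraries and Upk2 was at 0 in Dnmt1cKO 3 alone. Their mean was 9.02 ± 0.88 log2 CPM in Dnmt1cKO, 9.19 ± 0.47 in Control and 9.74 ± 0.31 in Cre neg libraries (SD). Dnmt1 itself had 9.99, 26.7, 123, 31.2 and 49.1 CPM in Dnmt1cKO libraries 1 to 5, against 97.4 and 106 CPM in Control and a median of 138 CPM (41.3 to 192) in Cre neg libraries, with a log2 fold change against Cre neg of -1.31 ± 0.51 (SE; edgeR adjusted p = 0.249). The library labelled Dnmt1cKO 3 held more Dnmt1 RNA than either Control, so its name here is its label only, and counts per gene include exons that recombination leaves. With the mean of stroma markers as a covariate the log2 fold change of Dnmt1 was -2.57 (adjusted p = 0.0156), and without Dnmt1cKO 3 it was -2.0 (adjusted p = 0.0531). The 18 markers of stroma and smooth muscle, none of them at 0 in every library of a group, summed to 305 to 12449.6 CPM in Dnmt1cKO (median 2926), 3526 and 13119 CPM in Control and 213 to 3391 CPM in Cre neg libraries (median 702). They were highest, as a mean of log2 CPM, in Dnmt1cKO 3, Control 2 and Dnmt1cKO 4. Their part in the results on the members was not tested. Values of members from fits with the mean of these markers as a covariate, or without these 3 libraries, are given beside the results below. In bulk RNA, fewer cells of a type and less RNA per cell cannot be told apart.

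**Figure D1:**
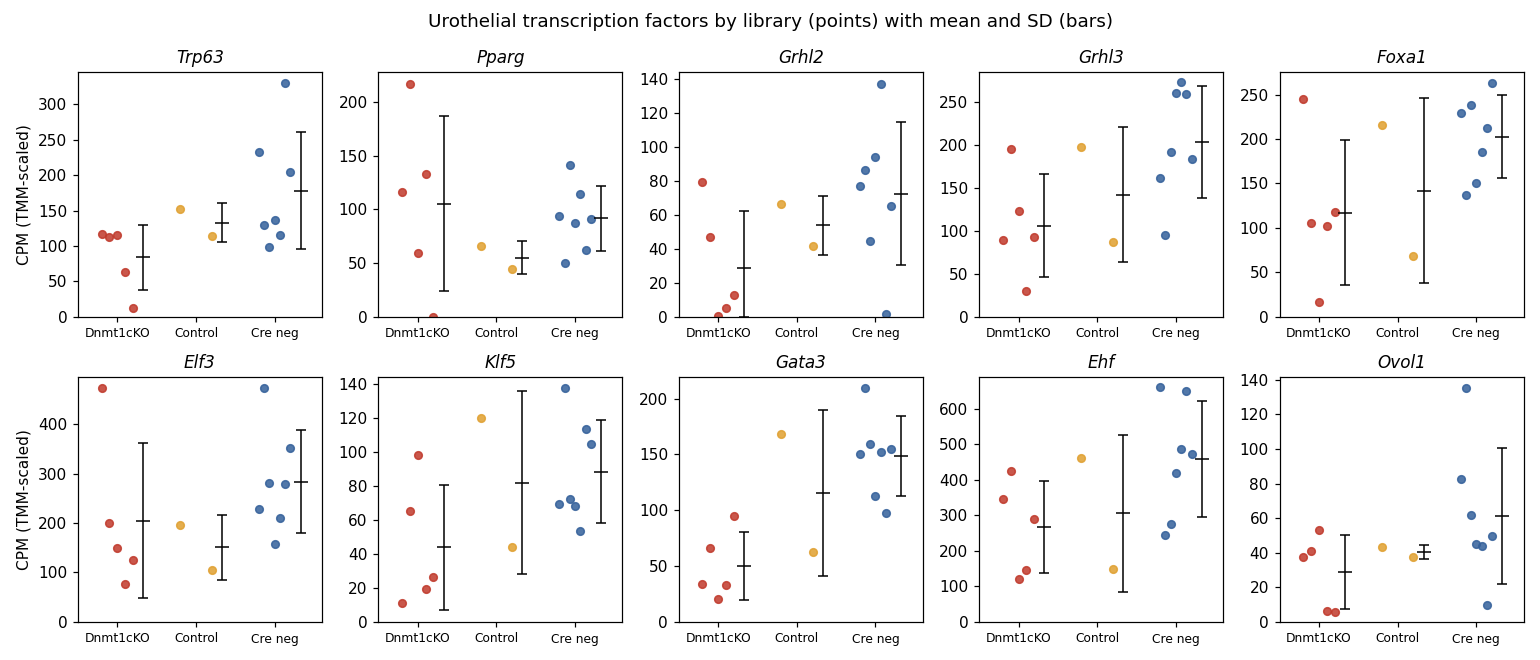
Levels of the 10 transcription factors in each library, in CPM, with 1 panel per gene and the groups Dnmt1cKO, Control and Cre neg from left to right; points are libraries, and bars give the mean and SD, ending at 0 where the SD exceeds the mean. The 5 Dnmt1cKO points of Gata3 lie at 20.2 to 94.8 CPM, all under the Cre neg points at 97.9 to 210 CPM, while those of the other members overlap the Cre neg range.

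The comparison of Dnmt1cKO with Cre neg urothelium shows how the factors stood where Cre and 2 floxed Dnmt1 alleles were present. Of the 10 members, 9 had a negative log2 fold change, with a median of -0.97 against -0.04 over all 13011 genes, of which 51.8% were negative. None passed the threshold: 0 of 10 members were called at an adjusted p under 0.05 by edgeR, beside 1.1% of all genes tested (0.915% higher and 0.184% lower). Before adjustment, at p under 0.05, 4 members (Gata3, Trp63, Grhl3 and Ehf) were lower, beside 7.03% of all genes, and 0 were higher, beside 6.66%. limma-voom likewise called 0 members, beside 454 of all 13011 genes. DESeq2 called 1, Gata3, which was lower, beside 567 of all 13011 genes, 235 of them lower. All 5 Dnmt1cKO libraries lay below all 7 Cre neg libraries for 1 member, Gata3, beside 0.999% of all genes. Without the 3 libraries highest in stroma markers, a setting chosen after seeing the data, 9 of 10 members again had a negative value and the median was -0.64. Over all genes 55.3% were negative there, with a median of -0.13, and 0 members were called, beside 114 of 13855 genes. Without Dnmt1cKO 3 alone, 9 were negative, 0 were called and the median was -0.99, against -0.05 over all genes. With the stroma marker mean as a covariate, a planned setting, 8 of 10 members were negative and the median was -0.84. Over all genes 59% were negative in that fit, with a median of -0.21, and 0 members were called, beside 80 of 13011 genes.

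Gata3, a zinc finger factor of luminal urothelium that is also expressed in the Wolffian duct and its derivatives, had 34.0, 66.5, 20.2, 32.9 and 94.8 CPM in Dnmt1cKO libraries 1 to 5, against 168 and 62.6 CPM in Control libraries and 97.9 to 210 CPM (median 153) in Cre neg libraries. The Dnmt1cKO and Cre neg groups did not overlap, but Control 2 lay among the Dnmt1cKO libraries. Means were 49.7 ± 30.5 CPM in Dnmt1cKO, 115 ± 74.5 in Control and 148 ± 35.9 in Cre neg libraries (SD). The log2 fold change against Cre neg was -1.58 ± 0.41 (95% interval -2.42 to -0.74). Its p was 0.000682 by edgeR's quasi-likelihood test across all genes, and the adjusted p was 0.0562, which did not pass the threshold. Over 26 alternatives it ran from -1.94 to -1.0 with adjusted p from 0.00745 to 0.629, and 4 of them called it: DESeq2 (adjusted p = 0.00745), no filter on low counts (0.0375), and the fits without Dnmt1cKO 2 (0.0481) or without Dnmt1cKO 5 (0.017). It was -1.21 with the stroma marker mean as a covariate (adjusted p = 0.34) and -1.16 without the 3 libraries highest in those markers (adjusted p = 0.213). With the mean of a list of epithelial genes as a covariate, chosen after seeing the data, it was -1.0 (edgeR adjusted p = 0.629). The 11 markers of Wolffian duct epithelium, a tissue that expresses Gata3, summed to 0.285 to 163 CPM in Dnmt1cKO, 186 and 236 CPM in Control and 126 to 244 CPM in Cre neg libraries. Pax2, Lhx1 and Sim1 were at 0 in every Dnmt1cKO and Cre neg library, Pax8 and Cdh16 were at 0 in every Dnmt1cKO library, and none was at 0 in both Control libraries. Their part in the Gata3 values was not tested.

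Pparg and Foxa1 act with GATA3 in the luminal programme. Pparg, the nuclear receptor that drives urothelial differentiation and is bound by fatty acid ligands, had 116, 217, 59.7, 133 and 0 CPM in the Dnmt1cKO libraries, against 65.5 and 43.9 CPM in Control and 50.1 to 141 CPM (median 91.0) in Cre neg libraries. Dnmt1cKO 5 had no count, which allows up to 1.30 CPM, and Dnmt1cKO 2 had the highest level of all 14 libraries, so the spread inside the group covered the Cre neg range on both sides. Pparg was the 1 member with a positive log2 fold change, 0.20 ± 0.63 (interval -1.10 to 1.51, adjusted p = 0.955), and it ran from -0.24 without Dnmt1cKO 2 to 0.52 without Dnmt1cKO 5. Foxa1, a forkhead factor that opens chromatin, had 245, 105, 16.1, 102 and 118 CPM in the Dnmt1cKO libraries, against 215 and 68.5 CPM in Control and 137 to 263 CPM (median 212) in Cre neg libraries. In 4 of 5 Dnmt1cKO libraries it lay below the whole Cre neg range, Dnmt1cKO 3 being the lowest and Dnmt1cKO 1 lying inside. Its log2 fold change was -0.79 ± 0.43 (interval -1.67 to 0.09, adjusted p = 0.443), and -0.35 without the 3 libraries highest in stroma markers. It was -1.25 without Dnmt1cKO 1 and -0.49 without Dnmt1cKO 3.

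Trp63 and Klf5 are factors of the proliferating and basal compartment. Trp63 encodes p63, which is required for stratified epithelia, and it had 117, 113, 116, 63.1 and 12.6 CPM in the Dnmt1cKO libraries, against 153 and 113 CPM in Control and 99.0 to 330 CPM (median 136) in Cre neg libraries. Dnmt1cKO 1 to 3 stood at the low end of the Cre neg range, and Dnmt1cKO 4 and 5 below it. The log2 fold change was -1.08 ± 0.43 (interval -1.97 to -0.19, adjusted p = 0.255). Klf5, a zinc finger factor needed for the formation of bladder urothelium in the mouse, had 10.8, 65.3, 98.1, 19.3 and 26.1 CPM in the Dnmt1cKO libraries, against 120 and 43.9 CPM in Control and 53.7 to 137 CPM (median 72.4) in Cre neg libraries. Dnmt1cKO 1, 4 and 5 were below every Cre neg library, while Dnmt1cKO 2 and 3 were among them. Its log2 fold change was -1.0 ± 0.51 (interval -2.06 to 0.05, adjusted p = 0.399). Klf5 was thus high in the same Dnmt1cKO 3 library in which Foxa1 and Gata3 were lowest.

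The grainyhead-like factors bind genes of junctions and barrier. Grhl2, a regulator of E-cadherin and claudin genes, had 79.1, 46.7, 0.241, 5.07 and 12.6 CPM in the Dnmt1cKO libraries, from 277, 448, 1, 21 and 29 counts, against 66.1 and 41.3 CPM in Control and 1.66 to 137 CPM (median 77.0) in Cre neg libraries. Low values occurred in both groups: 3 Dnmt1cKO libraries and 1 Cre neg library, Cre neg 6 with 13 counts, were at or under 12.6 CPM. The log2 fold change, -1.33 ± 0.85, had an interval of -3.08 to 0.42 that includes 0 (adjusted p = 0.556), and it was -2.15 without Dnmt1cKO 1. Grhl3, which is needed for the superficial cells of the mouse bladder, had 88.8, 195, 123, 29.5 and 93.1 CPM in the Dnmt1cKO libraries, against 198 and 86.4 CPM in Control and 94.8 to 273 CPM (median 192) in Cre neg libraries. Dnmt1cKO 4 was the lowest by a wide margin and Dnmt1cKO 1 and 5 lay just under the Cre neg range. Its log2 fold change was -0.94 ± 0.39 (interval -1.74 to -0.15, adjusted p = 0.265). Ovol1, a zinc finger repressor linked to epithelial maturation, had 37.7, 40.8, 53.4, 6.52 and 5.65 CPM in the Dnmt1cKO libraries, against 43.2 and 37.4 CPM in Control and 9.68 to 135 CPM (median 49.5) in Cre neg libraries. The first 3 Dnmt1cKO libraries were inside the Cre neg range and the last 2 below it, and the log2 fold change was -1.08 ± 0.66 (adjusted p = 0.524), or -0.72 without Cre neg 2.

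By group mean the ETS factors had the highest levels per length of the members, though their ranges over libraries overlapped those of other members. Elf3, known in human urothelial cells as a factor downstream of PPAR gamma, had 473, 201, 149, 76.4 and 126 CPM in the Dnmt1cKO libraries, against 197 and 105 CPM in Control and 158 to 474 CPM (median 279) in Cre neg libraries. Dnmt1cKO 1 lay next to the top of the Cre neg range and Dnmt1cKO 3, 4 and 5 lay under its bottom. The log2 fold change was -0.47 ± 0.37 (interval -1.23 to 0.30, adjusted p = 0.678), and -0.07 without the 3 libraries highest in stroma markers. Single libraries moved it: it was -1.03 without Dnmt1cKO 1, -0.25 without Dnmt1cKO 4 and -0.26 without Cre neg 2. Ehf, an epithelial ETS factor related to Elf3, had 346, 424, 121, 146 and 291 CPM in the Dnmt1cKO libraries, against 462 and 149 CPM in Control and 244 to 660 CPM (median 473) in Cre neg libraries. Dnmt1cKO 3 and 4 lay below the Cre neg range and the other 3 inside it. The log2 fold change was -0.79 ± 0.35 (interval -1.51 to -0.07, adjusted p = 0.307), and -0.34 without those 2 libraries and Control 2.

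**Figure D2:**
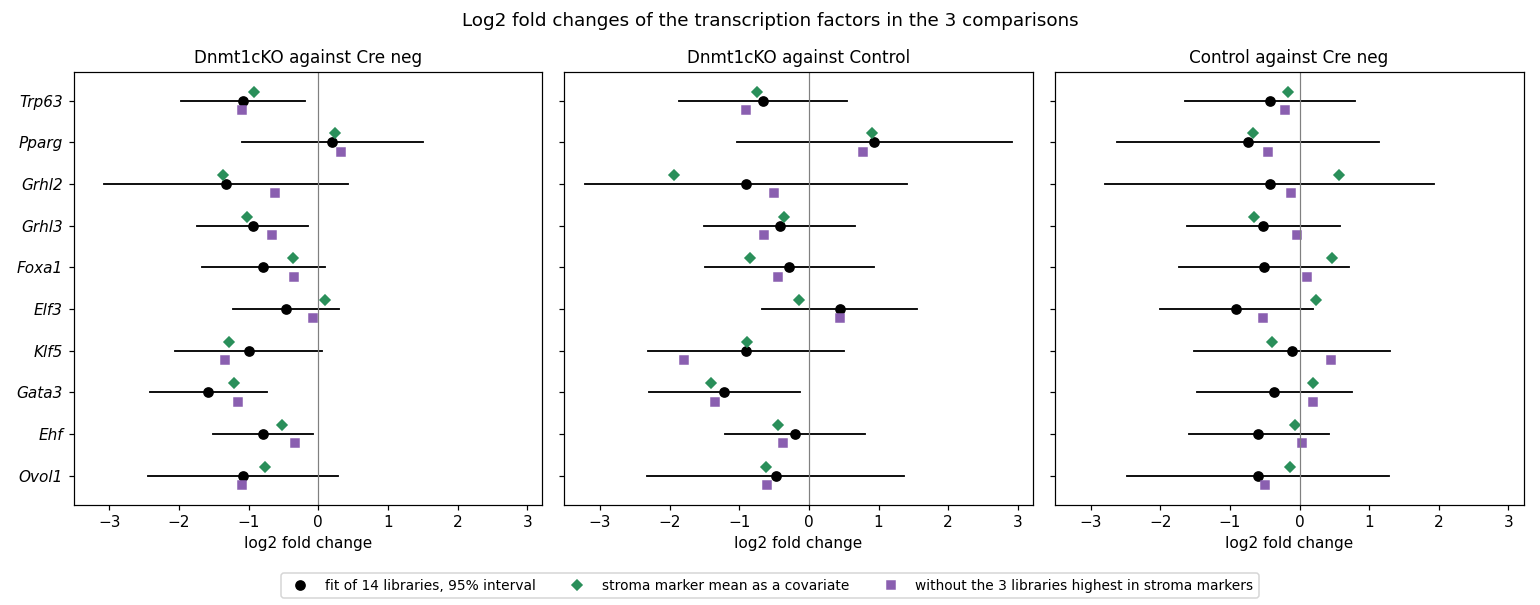
Log2 fold changes of the 10 members (horizontal axis) in the 3 comparisons: black points with 95% intervals are the fit of all 14 libraries, green diamonds the fit with the stroma marker mean as a covariate and purple squares the fit without the 3 libraries highest in those markers. In Dnmt1cKO against Cre neg, 9 of the 10 black points lie below 0, the lowest Gata3 at -1.58, and Pparg lies above 0 at 0.20.

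Low values of the members were spread unevenly over the libraries. Dnmt1cKO 4 and 5 each had 8 of 10 members below the whole Cre neg range, Dnmt1cKO 3 had 5, Dnmt1cKO 1 had 3 and Dnmt1cKO 2 had 2, while 18 to 23.7% of all genes lay below that range in Dnmt1cKO 1, 3, 4 and 5 and 11.7% in Dnmt1cKO 2. Control 2 had 7 members below the range, beside 10.1% of all genes, and Control 1 had 0, beside 3.57%. Above the range there was 1 member in 1 library, Pparg in Dnmt1cKO 2, beside 16.1% of all genes in that library. In the other Dnmt1cKO and Control libraries 9.2 to 23.1% of all genes lay above it. Dnmt1cKO 5 had the smallest total (2520509 counts), and 9402 gene symbols were above 0 in it, fewer than in any other library (9840 to 13740). The mean over a list of epithelial junction, protease and splicing genes was 7.30, 7.05, 5.33, 6.32 and 6.44 log2 CPM in Dnmt1cKO libraries 1 to 5, 7.08 and 6.35 in Control and 6.95 to 7.39 in Cre neg libraries, so libraries with low members also had lower values of these epithelial genes. With this mean as a covariate, a setting chosen after seeing the data, 7 of 10 members were negative in Dnmt1cKO against Cre neg. Their median was -0.73, against -0.06 over all genes, of which 52.7% were negative. In that fit 0 members were called, beside 78 of 13011 genes. The part of this difference in the member values was not tested. Between the members, patterns over the 14 libraries were most alike for Grhl3 and Ehf (root mean square difference of centred log2 CPM 0.61) and for Foxa1 and Ehf (0.66), and least alike for Pparg and Grhl2 (3.15). That last value includes Pparg at 0 counts in Dnmt1cKO 5 and Grhl2 at 1 count in Dnmt1cKO 3.

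**Figure D3:**
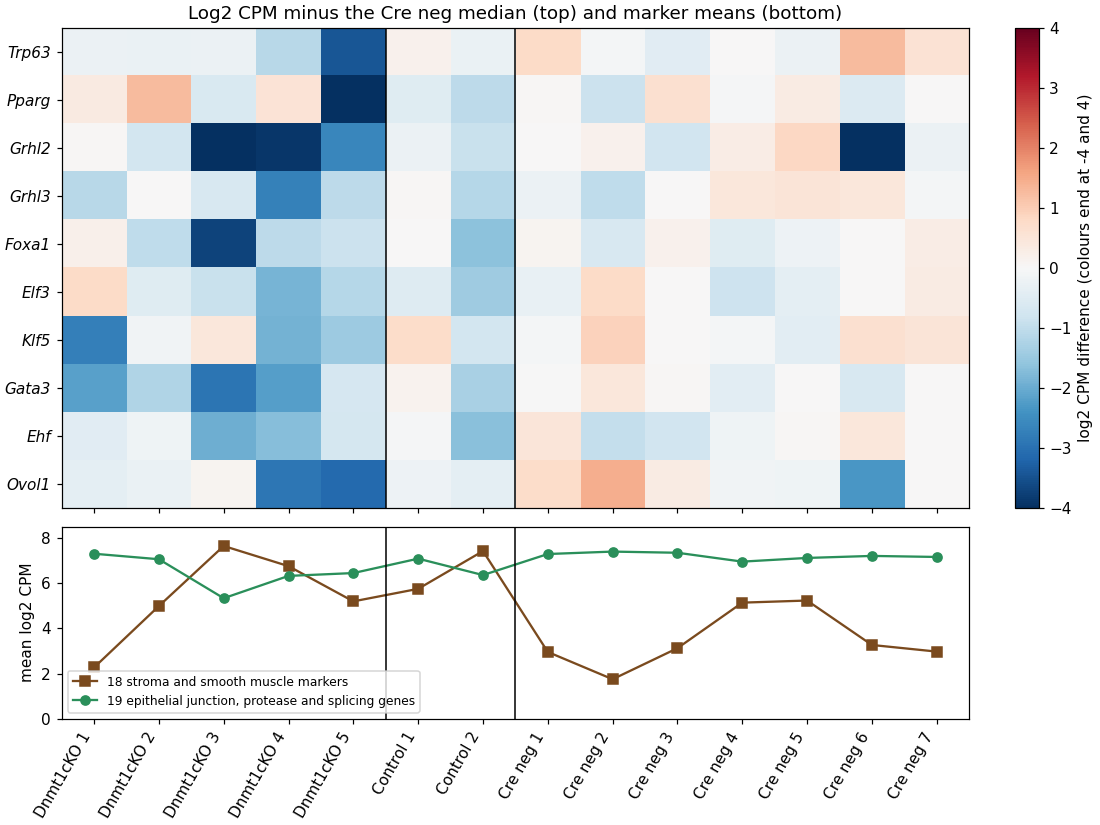
Log2 CPM of each member (rows) relative to its Cre neg median in every library (columns, Dnmt1cKO, Control and Cre neg from left to right), with colours ending at -4 and 4, above a lower panel with the mean log2 CPM of 18 markers of stroma and of 19 epithelial genes. Pparg in Dnmt1cKO 5 and Grhl2 in Dnmt1cKO 3 are among the lowest values, and Control 2 is lower than Control 1 in 10 of 10 members.

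Levels were also put in order per length, as CPM per kilobase of the union of a gene's exons. In Cre neg libraries the order was Elf3 (mean 135), Ehf (99.5), Grhl3 (73.0), Foxa1 (63.5), Gata3 (46.1), Pparg (38.4), Trp63 (21.2), Ovol1 (20.6), Klf5 (17.0) and Grhl2 (13.6). The ranges of all neighbours in that order overlapped. In Dnmt1cKO libraries Pparg (44.2 CPM per kilobase) came next after Elf3 (97.9) and Ehf (57.7), ahead of Grhl3 (37.9), Foxa1 (36.7) and Gata3 (15.4), and Grhl2 (5.39) again was last. All neighbours overlapped there too. In Control libraries Elf3 (72.0), Ehf (66.3) and Grhl3 (50.9) led and Grhl2 (10.1) was last, and the ranges of Pparg and Trp63 and of Ovol1 and Grhl2 did not overlap. With the longest transcript as the length, a choice made after seeing the data, Ovol1 and Klf5 changed places in Dnmt1cKO and Cre neg libraries, and Gata3 and Trp63 in Dnmt1cKO libraries.

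For each member the 2 genes nearest in pattern were found among 10240 genes with a mean of at least 5 CPM, as the smallest root mean square difference of centred log2 CPM over the 14 libraries. Grhl3 had Lrrfip1 (0.31) and Lima1 (0.40), Elf3 had Stxbp2 (0.33) and Lypla2 (0.33), and Ehf had Aplp2 (0.37) and Aim1 (0.38), the closest matches. Foxa1 was nearest to Leprot (0.42) and Por (0.42), Trp63 to Erlin2 (0.46) and Hdac3 (0.46), and Gata3 to Aldh1a7 (0.47) and Cyb5b (0.51). Pparg was nearest to Ube2q1 (0.54) and Bloc1s6 (0.63), Klf5 to Hira (0.56) and Gbas (0.59), and Ovol1 to Nedd9 (0.67) and Araf (0.68). The farthest was Grhl2, with Zfyve26 (0.99) and Endov (1.01), and Pparg and Grhl2 were also the members with the largest SD of log2 CPM over the libraries (2.59 and 2.50). Both SDs and both sets of nearest genes include libraries at or near 0. Pparg had 0 counts in Dnmt1cKO 5 (log2 CPM -2.93). Grhl2 had 1 count in Dnmt1cKO 3 (-1.43) and 13 counts in Cre neg 6 (0.84). No member was among these nearest genes of another.

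Dnmt1cKO against Control sets 2 floxed Dnmt1 alleles against 1 with Shhcre in both, and the 2 Control libraries limit its precision. By edgeR 0 of 10 members were called, beside 0.177% of all genes, all of them higher, and 8 of 10 log2 fold changes were negative with a median of -0.45 (0 over all genes, 50.2% negative). Only Gata3 was lower at a p under 0.05 before adjustment, beside 5.23% of genes. Its log2 fold change was -1.22 ± 0.53 (edgeR adjusted p = 0.627), and -0.34 without Control 1. The ranges overlapped for 10 of 10 members, while 9.74% of all genes had every Dnmt1cKO library below both Control libraries. Pparg, at 105 ± 81.5 CPM in Dnmt1cKO and 54.7 ± 15.3 CPM in Control libraries, had 0.94 ± 0.96, and Elf3 had 0.44 ± 0.54; the other members lay between -1.22 and -0.20. The values depended on the Control libraries: without Control 1, the median log2 fold change was 0.16 and 6 of 10 were positive, and without Control 2 it was -0.87.

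Control against Cre neg sets Cre with 1 floxed allele against litter mates without Cre. By edgeR 0 of 10 members were called, beside 0.0538% of all genes (0 genes lower), and 0 had an unadjusted p under 0.05, beside 3.67%. All 10 log2 fold changes were negative (53.3% of all genes), with a median of -0.52 against -0.04 over all genes, and none of the 10 had groups that did not overlap (7.94% of genes did). The most negative was Elf3, at 151 ± 65.2 CPM in Control and 283 ± 104 CPM in Cre neg libraries (-0.91 ± 0.54, unadjusted p = 0.103, adjusted p = 1). Control 2 was lower than Control 1 in 10 of 10 members, where 50% of all genes were, and without Control 2 the median was -0.07, with 6 of 10 negative. The comparisons of Dnmt1cKO and of Control with Cre neg share the 7 Cre neg libraries, and both comparisons that involve Control share its 2.

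Of 29 related factors and partners, 27 were tested (Trp73 and Foxa3 were not), and 0 were called in Dnmt1cKO against Cre neg, beside 1.1% of all genes. Their median log2 fold change was -0.14, with 15 negative and 12 positive, where 51.8% of all genes were negative. For 3 (Tbx3, Rxra and Rarg) every Dnmt1cKO library lay below every Cre neg library, beside 0.999% of all genes. Tbx3, a T-box factor, had 99.3, 104, 101, 149 and 54.4 CPM in Dnmt1cKO, 263 and 171 CPM in Control and 177 to 248 CPM (median 212) in Cre neg libraries, so that Control and Cre neg both lay above all Dnmt1cKO libraries. Its log2 fold change was -1.05 ± 0.29 (adjusted p = 0.0828). Id2, a negative regulator of helix-loop-helix factors, had a positive value, with 149, 192, 342, 259 and 68.7 CPM in Dnmt1cKO, 63.2 and 105 CPM in Control and 48.5 to 126 CPM (median 88.0) in Cre neg libraries (1.21 ± 0.36, adjusted p = 0.11).

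Both receptor partners, Rxra and Rarg, were chosen for mention after their values were seen. Rxra, which pairs with PPAR gamma, had 152, 135, 48.3, 30.7 and 147 CPM in Dnmt1cKO, 201 and 115 CPM in Control and 160 to 349 CPM (median 224) in Cre neg libraries (-1.18 ± 0.38, adjusted p = 0.136). Rarg, a retinoic acid receptor, had 31.1, 46.8, 0.481, 11.8 and 0.870 CPM in Dnmt1cKO, 69.7 and 58.3 CPM in Control and 55.9 to 108 CPM (median 88.4) in Cre neg libraries (-2.20 ± 0.73, adjusted p = 0.154). Neither passed the threshold. Both Control libraries lay above all Dnmt1cKO libraries for Rarg, while for Rxra they overlapped.

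**Figure D4:**
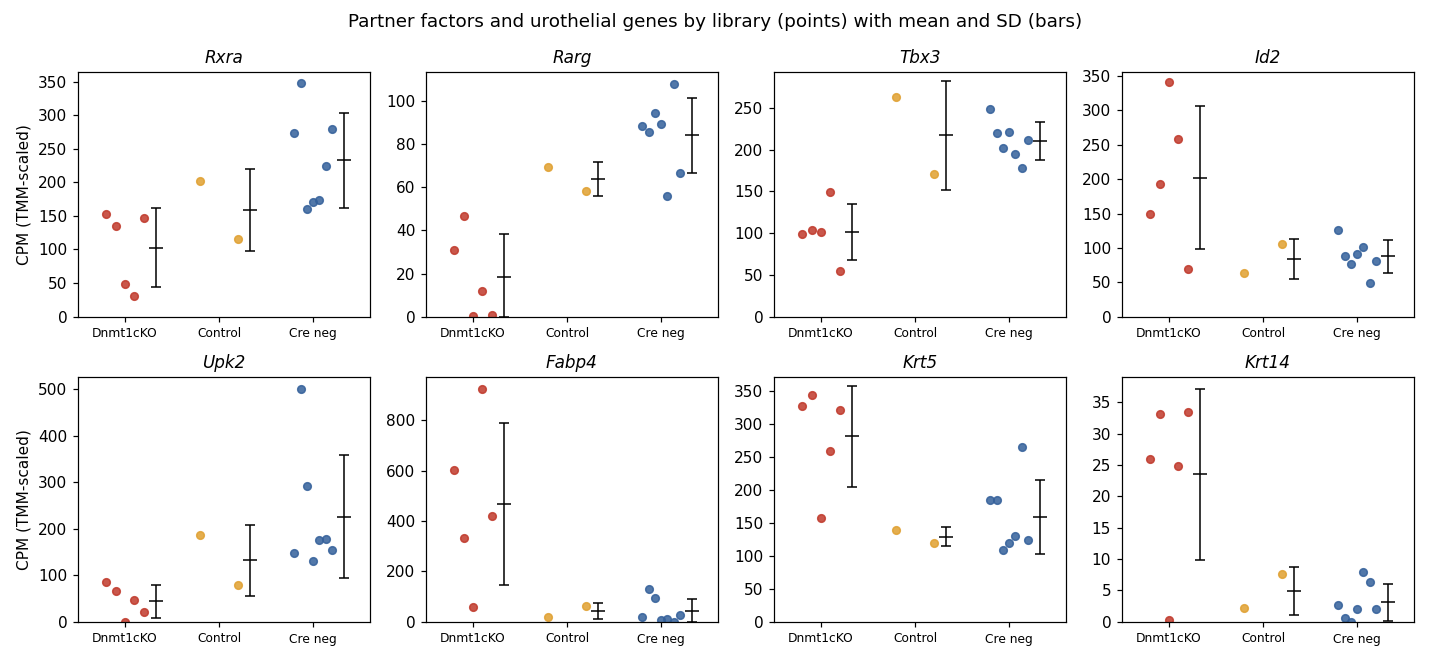
Levels of Rxra, Rarg, Tbx3, Id2, Upk2, Fabp4, Krt5 and Krt14 in each library, in CPM, with the groups Dnmt1cKO, Control and Cre neg from left to right; points are libraries and bars give the mean and SD, ending at 0 where the SD exceeds the mean. Fabp4 runs from 58.7 to 926 CPM in Dnmt1cKO and from 0.127 to 130 CPM in Cre neg libraries.

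The lists of partners and downstream genes held 27, 16, 13, 19, 12 and 8 tested genes. Across them 1 gene was called in Dnmt1cKO against Cre neg, a share near the 1.1% of all genes. That gene was Fabp4. This fatty acid binding protein, which PPAR gamma induces in adipocytes, rose: it had 602, 333, 58.7, 926 and 419 CPM in Dnmt1cKO, 20.2 and 64.8 CPM in Control and 0.127 to 130 CPM (median 20.3) in Cre neg libraries. Only Dnmt1cKO 3 overlapped the Cre neg range, and Pparg itself was at 0 in Dnmt1cKO 5, where Fabp4 had 419 CPM. The log2 fold change against Cre neg was 3.48 ± 0.78 (adjusted p = 0.0211), and the call was lost without Cre neg 1 (0.0529), Cre neg 5 (0.0561), Cre neg 7 (0.0619) or Dnmt1cKO 4 (0.0866). Against Control it was 3.46 ± 1.31 (edgeR adjusted p = 0.514), so Fabp4 was not called there, and the ranges overlapped. Endothelial cells also express Fabp4. The 6 endothelial markers summed to 0, 14.3, 91.9, 9.42 and 7.39 CPM in Dnmt1cKO libraries 1 to 5. In Control they summed to 16.7 and 52.3 CPM and in Cre neg libraries to 0.341 to 24.7 CPM. Among Dnmt1cKO libraries their sum was highest in Dnmt1cKO 3, where Fabp4 was lowest, and 0 in Dnmt1cKO 1, where Fabp4 had 602 CPM. The part of endothelial cells in this result was not tested. Of the 16 tested superficial and intermediate genes, 1 was called higher (Fabp4) and 0 lower, beside 0.915% and 0.184% of all genes. Negative values were found in 14, with a median of -0.46, against 51.8% and a median of -0.04 over all genes. Upk2, a uroplakin of the superficial membrane, had 86.2, 66.0, 0, 45.9 and 20.0 CPM in Dnmt1cKO, 186 and 78.0 CPM in Control and 131 to 501 CPM (median 175) in Cre neg libraries (-2.37 ± 0.68, adjusted p = 0.0967). Krt7, a luminal keratin, had 970 ± 355 CPM in Dnmt1cKO, 1072 ± 214 CPM in Control and 1720 ± 301 CPM in Cre neg libraries (-0.83 ± 0.25, adjusted p = 0.119).

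Of 13 tested basal genes, 0 were called, beside 1.1% of all genes. Positive values were found in 9, with a median of 0.44, while 51.8% of all genes were negative, with a median of -0.04. Krt5, the keratin of basal cells, had 327, 343, 156, 258 and 321 CPM in Dnmt1cKO, 139 and 119 CPM in Control and 108 to 265 CPM (median 130) in Cre neg libraries (0.82 ± 0.29, adjusted p = 0.184). Krt14 had 26.0, 33.1, 0.241, 24.9 and 33.5 CPM in Dnmt1cKO, 2.21 and 7.61 CPM in Control and 0 to 7.90 CPM (median 2.08) in Cre neg libraries (2.91 ± 1.34, adjusted p = 0.33), with Dnmt1cKO 3 alone inside the Cre neg range. Krt17, a keratin of activated basal cells, was low in every group, at 1.49 ± 2.45 CPM in Dnmt1cKO, 4.65 ± 1.89 CPM in Control and 0.176 ± 0.151 CPM in Cre neg libraries.

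Of 19 junction, protease and splicing genes, 0 were called and 14 were negative, with a median of -0.30. Over all genes tested in Dnmt1cKO against Cre neg, 1.1% were called and 51.8% were negative, with a median of -0.04. Esrp1, an epithelial splicing factor, had 89.2 ± 46.6 CPM in Dnmt1cKO, 109 ± 48.6 CPM in Control and 163 ± 30.7 CPM in Cre neg libraries (-0.87 ± 0.34, adjusted p = 0.249). Spint2, a protease inhibitor of epithelia, had -0.84 ± 0.36 (adjusted p = 0.278) and Epcam, an adhesion molecule, -0.46 ± 0.26 (adjusted p = 0.462). Of 12 tested PPAR target genes, 0 were called, with 7 negative and a median of -0.20. Angptl4 (5.15 ± 1.87, adjusted p = 0.205) and Plin2 (1.40 ± 0.54, adjusted p = 0.241), both genes of lipid handling, were above 0, and Hadha, an enzyme of fatty acid oxidation, was at -0.94 ± 0.36 (adjusted p = 0.233). Angptl4 was near 0 in the reference: it had 14.8 ± 16.4 CPM in Dnmt1cKO, 5.75 ± 4.91 CPM in Control and 0.384 ± 0.852 CPM in Cre neg libraries. It was at 0 in 3 Cre neg libraries and 1 Dnmt1cKO library. Of 8 tested mesenchymal transcription factors, 0 were called and 6 were positive, with a median of 1.40. Zeb1, a repressor of epithelial genes, had 10.6 ± 16.3 CPM in Dnmt1cKO, 27.1 ± 17.6 CPM in Control and 1.63 ± 2.78 CPM in Cre neg libraries (2.68 ± 1.54, adjusted p = 0.479). Tcf21 (1.92 ± 1.5, adjusted p = 0.667) and Prrx1 (1.55 ± 1.33, adjusted p = 0.706), both factors of mesenchyme, were highest among Dnmt1cKO libraries in Dnmt1cKO 4, at 58.2 CPM for Tcf21 and 74.9 CPM for Prrx1. The stroma marker list had 18 of 18 positive values in the same comparison, with a median of 2.21 and 2 called higher, beside 0.915% of all genes. Its part in the values of these factors was not tested.

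The members' positions on GRCm38 (GENCODE M21) bear on how reads were counted, since the use of strand is not given. Gata3 (chr2:9857078-9890034), Grhl2 (chr15:37233036-37363569), Elf3 (chr1:135253575-135258568) and Ovol1 (chr19:5549136-5560646) overlap exons of annotated antisense genes, none of which is a row of the table, so reads of the partner cannot be told apart in these 4. The other 6, Trp63 (chr16:25683763-25892102), Pparg (chr6:115360951-115490399), Grhl3 (chr4:135541888-135573630), Foxa1 (chr12:57540628-57546916), Klf5 (chr14:99298691-99315036) and Ehf (chr2:103263433-103303278), have no antisense exon overlap. No member has a near-identical transcript of another gene at 95% identity over 50% of its length.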

How the data were processed

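The deposited table holds expected counts of RSEM for 20308 gene symbols in 14 libraries, not scaled to library size. Tools listed in the submitters' processing notes are RSEM 1.2.3, Bowtie 0.12.9 and bcl2fastq 2.17.1.14, with mm10 as the build; the annotation and the use of strand are not given in the sources used here. Per the labels' protocols, mRNA was captured on oligo-dT beads, primed with random hexamers and amplified by PCR, so the limits that a count of 0 allows cover counting error only. Intervals of log2 fold changes come from the fit and cover the spread between pooled lysates.

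Of the values in a library, 7.31 to 21.9% were not whole; the expected counts were rounded. Genes were filtered with filterByExpr (13011 left), scaled by TMM and tested by edgeR 4.0.16 (R 4.3.3) with its quasi-likelihood test, all 14 libraries in 1 fit without covariates, and Benjamini-Hochberg adjustment over all genes. A gene was called at an adjusted p under 0.05. Errors are SD beside CPM and SE beside log2 fold changes. Groups came from the titles. CPM use TMM-scaled library sizes, and log2 CPM a prior count of 1. No columns were copies of each other.

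The members and gene lists were chosen with earlier results of these data known. Named in the text are every member, Dnmt1, the genes of each pathway list called in any comparison or among the 3 smallest p of Dnmt1cKO against Cre neg, and the 2 genes nearest each member in pattern; 1 gene of the list of related factors is not reported here, and Rxra and Rarg were added after their values were seen. Fits were tested on simulated data. Alternatives were RLE scaling, DESeq2 1.42.0, limma-voom (limma 3.58.1), no filter, a filter of at least 5 CPM in at least 5 libraries, only the groups compared, the replicate block, a stroma covariate, Control pooled with Cre neg, and leaving out the 3 shallowest or each single library. Near-identical transcripts were searched with BLAST+ 2.17.0.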

Additional observations from a re-analysis of the deposited data

How the results depend on the processing

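Dnmt1cKO against Cre neg had 143 genes called, Dnmt1cKO against Control 23 and Control against Cre neg 7. These were 567, 113 and 21 with DESeq2, 454, 232 and 40 with limma-voom, and 249, 34 and 25 with no filter on low counts. They were 75, 18 and 19 with the replicate block, 80, 27 and 4 with the stroma covariate, and 78, 27 and 4 with the mean of the epithelial list as a covariate, chosen after seeing the data. The stricter filter gave 95, 22 and 7, the groups compared alone 86, 31 and 6, and leaving out the 3 libraries highest in stroma markers, also chosen after seeing the data, 114, 16 and 1. Leaving out single libraries gave 93 to 238, 6 to 37 and 2 to 11. RLE scaling, the fit without the 3 shallowest libraries and the pooled reference stayed within 1.5 times.

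Members called in Dnmt1cKO against Cre neg were 0, and 1 (Gata3) with DESeq2, with no filter and in the fits without Dnmt1cKO 2 or 5 (0 to 1 over the single libraries left out); in the other comparisons they were 0 under every alternative. Same-numbered libraries did not pair: of 9 pairs 1 had a correlation of deviations over 0.1 (-0.15 to 0.105). With the replicate block the log2 fold change of Gata3 was -1.82.

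Log2 fold changes that changed sign were these, and the cause was not tested. In Dnmt1cKO against Cre neg, Pparg was -0.31 with limma-voom, -0.34 with the block and -0.24 without Dnmt1cKO 2, Elf3 was 0.10 with the stroma and 0.06 with the epithelial covariate, and Foxa1 was 0.10 with the epithelial covariate. In Dnmt1cKO against Control, the block gave 0.05 for Foxa1 and 0.28 for Ehf, and Elf3 was -0.15 with the stroma covariate, -0.09 without the 3 shallowest libraries and -0.13 without Dnmt1cKO 1. Ehf was 0.04 with the epithelial covariate, Foxa1 0.00 without Dnmt1cKO 3, and without Control 1 Grhl3 was 0.30, Foxa1 0.76, Klf5 0.02 and Ehf 0.83. In Control against Cre neg, limma-voom gave 0.19 for Grhl2 and 0.15 for Klf5, the block 0.12 for Klf5, and the stroma covariate 0.57 for Grhl2, 0.47 for Foxa1, 0.24 for Elf3 and 0.20 for Gata3. Klf5 was 0.06 without the 3 shallowest libraries and 0.06 without Cre neg 2, and the epithelial covariate gave 1.13 for Grhl2 and 0.12 for Foxa1. Without the 3 libraries highest in stroma markers Foxa1 was 0.10, Klf5 0.45, Gata3 0.19 and Ehf 0.03, and without Control 2 they were 0.11, 0.46, 0.20 and 0.03. limma-voom shifted the median of all genes to -0.34, -0.78 and 0.15 in the 3 comparisons and the block to -0.41 and -0.38 in those of Dnmt1cKO. Over the single libraries left out these values ran, in Dnmt1cKO against Cre neg, up to 0.52 for Pparg. In Dnmt1cKO against Control they ran down to -0.89 for Grhl3, -0.88 for Foxa1, -1.43 for Klf5 and -0.79 for Ehf, and up to 0.95 for Elf3. In Control against Cre neg they ran down to -1.52 for Foxa1, -0.97 for Klf5, -1.20 for Gata3 and -1.57 for Ehf. Control has 2 libraries, and leaving out 1 assumes that the other varies like the other groups.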

Other observations

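The lists were also described in Control against Cre neg, where 0 list genes were called by edgeR, beside 0.0538% of all genes. Over all genes 53.3% were negative there, with a median of -0.04. Mesenchymal transcription factors had 7 of 8 positive log2 fold changes and a median of 1.54, and stroma markers had 17 of 18 and a median of 2.54. Zeb1, a repressor of epithelial genes, had 14.6 and 39.5 CPM in Control, against 0 to 7.77 CPM in Cre neg libraries (4.03 ± 1.83, adjusted p = 1). Junction, protease and splicing genes had 18 of 19 negative values (median -0.50) and superficial and intermediate genes 15 of 16 (median -0.61). The gene with the most counts in Dnmt1cKO 5 was Lars2, a mitochondrial leucyl-tRNA synthetase, with 4.81% of that library, while the top gene of each other library held at most 1.05%.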
